A study of Mus musculus with 9 samples.

Results

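The transcripts described here are 8 cytokine genes that B cells are known to make, Il10, Il12a, Ebi3, Tgfb1, Ltb, Lta, Tnf and Il16. They were chosen by name, and all 8 were found among the 22178 genes of the deposited table. The study profiled polyA RNA of mouse B cells on a backcrossed C57BL/6 background in 9 libraries, with 3 libraries in each of 3 groups. Splenic B2 cells, the conventional recirculating B cells, carried the strain label VH12B1-8/Vk4. Peritoneal B1 cells, the innate-like B cells of the body cavities, carried the strain label B1-8VH12/Vk4. B2B1 cells had the same peritoneal source and strain label as B1 cells, and the exchange of their B cell receptor (BCR) for another had been triggered 30 days, approximately, before collection. All groups share the label element Vk4. No age, sex, sorting gate or driver of the receptor switch is given. Whether the 3 libraries of a group are from different mice is also not labelled, so the p-values rest on the spread of these libraries, which for B1 may be technical. B2 cells differ from both other groups in organ and strain label as well as in cell type, and these cannot be told apart.

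Cytokines let B cells act on other cells without antibody. IL-10 and IL-35, a pair of p35 (Il12a) and Ebi3, dampen immune responses and are known products of regulatory B cells, and TGF-beta 1 is a suppressive factor that is secreted in a latent form. Lymphotoxin alpha and beta and TNF belong to one ligand family. Membrane lymphotoxin on B cells maintains the follicular dendritic cells and the architecture of the spleen, and IL-16 is cut from a large precursor and attracts cells that carry CD4.

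Values are TPM, a relative abundance corrected for gene length, so levels can be set beside each other between genes. TPM keep no read counts and the depth is unknown. B cell identity was checked first. The 8 B cell markers (such as Cd79a, Cd79b, Ms4a1 and Pax5) summed to 9449 to 11584 TPM in every library, and none was near 0. For Xist, which is transcribed from the silenced X, 3 libraries (B2 2, B2B1 1 and B2B1 2) had 0.355 to 0.461 TPM and the other 6 had 180.4 to 298.1 TPM, so those 3 were also left out as a check. The Y-linked gene Ddx3y ran opposite, at 56.9 to 75.3 TPM in those 3 and at 0.109 to 0.323 TPM in the other 6, so within B2 and within B2B1 the libraries do not share 1 mouse. They make up 1 of 3 libraries in B2, 2 of 3 in B2B1 and 0 of 3 in B1. Without them B2B1 holds 1 library, assumed to vary like the others. The log2 differences of B2B1 from B1 were then 3.05 for Il10, 4.76 for Il12a and −0.56 for Il16. Markers of macrophages (10 measured, such as Emr1, Csf1r and Lyz2) summed to 1.67 to 2.71 TPM in B2, 68.6 to 267.4 TPM in B2B1 and 21.5 to 50.3 TPM in B1.

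Ltb, Tnf and Lta are neighbours within 10913 bases of chromosome 17 and were each lower in both peritoneal groups than in B2, so their promoter windows are printed here. The sequences are from RefSeq on GRCm38.p6, the build that corresponds to the mm10 of the submitters, and run 5′ to 3′ on each gene's own strand from 250 bases before to 50 bases after its start. Capitals mark matches to TATAAA and to the NF-kB consensus, searched on both strands.
Ltb promoter, chr17:35194257-35194556, plus strand: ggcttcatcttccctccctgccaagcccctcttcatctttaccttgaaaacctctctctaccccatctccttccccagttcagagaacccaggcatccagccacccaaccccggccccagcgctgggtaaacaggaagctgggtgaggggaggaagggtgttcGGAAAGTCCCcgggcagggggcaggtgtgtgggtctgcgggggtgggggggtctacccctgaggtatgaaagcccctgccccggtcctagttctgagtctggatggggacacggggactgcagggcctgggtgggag
Tnf promoter, chr17:35201958-35202257, minus strand: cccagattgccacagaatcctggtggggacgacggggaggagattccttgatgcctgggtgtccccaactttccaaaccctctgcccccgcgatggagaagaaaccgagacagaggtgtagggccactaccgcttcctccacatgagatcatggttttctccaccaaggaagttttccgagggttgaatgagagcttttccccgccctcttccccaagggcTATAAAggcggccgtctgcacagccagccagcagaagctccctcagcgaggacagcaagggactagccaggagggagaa
Lta promoter, chr17:35205302-35205601, minus strand: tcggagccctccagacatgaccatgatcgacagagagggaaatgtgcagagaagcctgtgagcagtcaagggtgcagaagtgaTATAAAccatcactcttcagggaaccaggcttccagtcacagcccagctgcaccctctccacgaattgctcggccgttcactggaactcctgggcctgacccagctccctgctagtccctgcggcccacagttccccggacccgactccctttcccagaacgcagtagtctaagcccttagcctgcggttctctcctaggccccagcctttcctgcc
In the Tnf window TATAAA began 29 bases before the start, and in the Lta window 167 bases before it. In the Ltb window the NF-kB consensus matched once, on the opposite strand, 87 to 78 bases before the RefSeq start. The GENCODE M21 start of Ltb, at 35194439, lies upstream of that RefSeq start, so the match is nearer to it. Among all 32851 promoter windows of this length, 13.6% held TATAAA and 8.46% held the NF-kB consensus. The letters TGANTCA (7.81% of windows), TGACGTCA (1.79%) and CCGGAAGT (3.89%) did not occur in the 3 windows. A match describes the letters only.

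Across the groups the 8 cytokine genes showed 5 patterns. Ltb, Lta, Tnf and Tgfb1 were highest in B2 and lower in both peritoneal groups. Il16 had the order B2, B1, B2B1. Ebi3 was higher in both peritoneal groups. Il10 was highest in B2B1, and Il12a stood near its B2 level in B2B1 but was low in B1. Errors given as ± after a level are SDs over the 3 libraries of a group (n = 3), and those after a log2 difference are standard errors. The summed level of the 8 genes was 1478 ± 52.4 TPM for B2, 482.8 ± 61.3 TPM for B2B1 and 339.6 ± 49.0 TPM for B1. Ltb alone made up 65.2 to 67.6% of that sum in B2 and 25.0 to 49.2% in the peritoneal libraries. In bulk samples, fewer cells with a transcript and less of it per cell cannot be told apart.

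**Figure D1:**
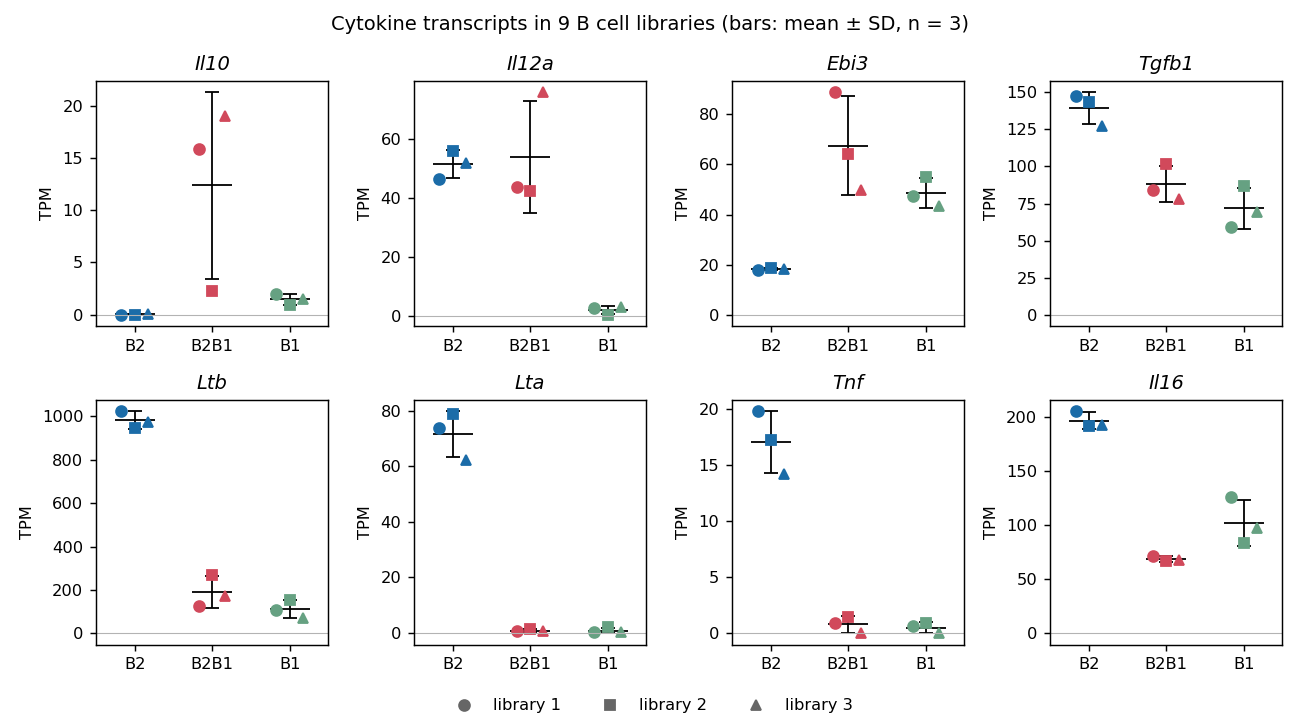
Level of each cytokine gene in TPM (vertical axis, linear, separate for each gene) in the 3 libraries of B2, B2B1 and B1 (horizontal axis); symbols are libraries and black bars are the mean ± SD. Ltb, Lta, Tnf and Tgfb1 are highest in B2, Il12a averages 2.13 TPM in B1, and Il10 is above 15 TPM in B2B1 libraries 1 and 3 but at 2.23 TPM in library 2.

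Differences were fitted with limma on log2(TPM + 1) over the 11099 genes with a mean of at least 1 TPM, which all 8 members reached. Lta and Tnf reached it through B2 and Il10 mainly through B2B1, so their part in the counts and medians below has no weight. The comparison of B1 with B2 asks how natural peritoneal B1 cells differ from splenic B2 cells. Of the 8 genes, 6 were lower in B1 and 1, Ebi3, was higher at a limma adjusted p under 0.05, while Il10 was not called. Over all tested genes 51.9% were called in this comparison, 33.9% lower and 18% higher. The median log2 difference was −2.08 for the 8 genes and −0.14 for all genes. The comparison of B2B1 with B2 asks how cells with a switched receptor differ from B2 cells, and it uses the same B2 libraries. In it 5 of the 8 were lower, 2 (Il10 and Ebi3) were higher and Il12a was not called, against 63% of all tested genes called, 42% lower and 21% higher. The medians were −1.08 and −0.19. The comparison of B2B1 with B1 asks whether switched and natural peritoneal cells differ. In it 2 of the 8 (Il10 and Il12a) were higher and 1 (Il16) was lower, against 19% of all tested genes called, 6.93% higher and 12.1% lower, with medians of 0.37 and −0.06. The values of the 3 libraries of each group did not overlap for 8 of 8 members in B1 against B2 (61.7% of all tested genes), 7 of 8 in B2B1 against B2 (72.2%) and 3 of 8 in B2B1 against B1 (35.7%). Rescaling TPM by median-of-ratios factors moved the median of all genes to about 0.00 in each comparison, and the B1 against B2 calls from 2003 higher and 3762 lower to 2770 and 2547. No member changed its call or its direction under that scaling.

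**Figure D2:**
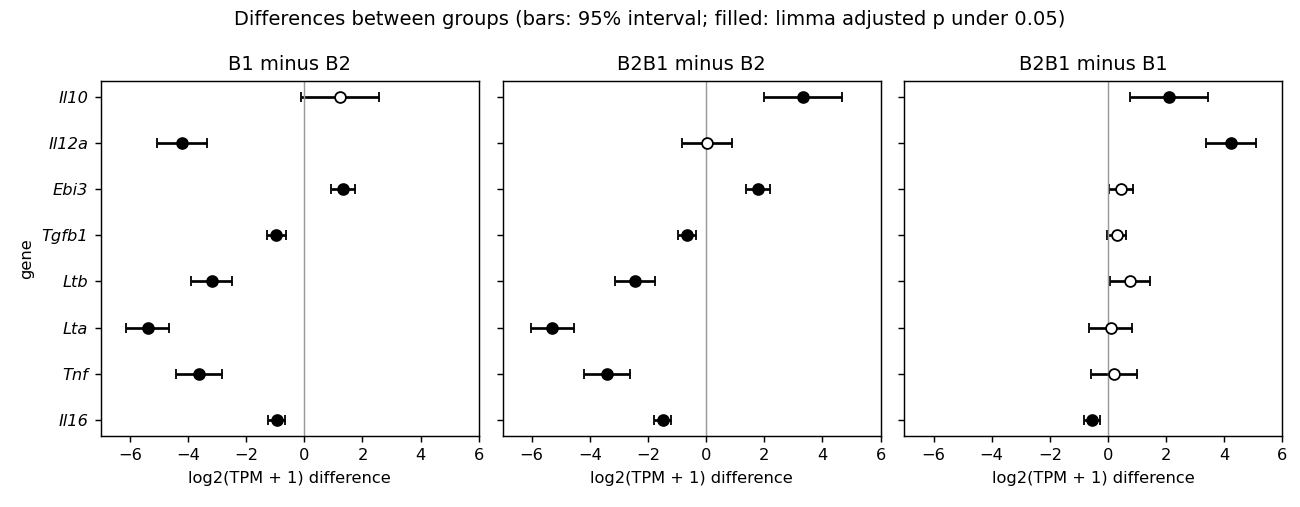
Fitted difference on the log2(TPM + 1) scale (horizontal axis) for the 8 cytokine genes (vertical axis) in the 3 comparisons, with 95% intervals; filled points have a limma adjusted p under 0.05. Lta lies furthest below 0 in both comparisons with B2, at −5.39 and −5.29, and Il12a furthest above 0 between B2B1 and B1, at 4.22.

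Il10 encodes the suppressive cytokine IL-10, made by regulatory B cells and by B-1 cells. It lies on chromosome 1 from 131019845 to 131024974 (GRCm38, GENCODE M21, here and below). It was listed at 0, 0 and 0.0822 TPM in the B2 libraries, at 15.9, 2.23 and 19.0 TPM in the B2B1 libraries, and at 2.0, 0.879 and 1.49 TPM in the B1 libraries. Every peritoneal library thus exceeded every B2 library. Every B2B1 library exceeded every B1 library, but B2B1 library 2 stood only just above the highest B1 value. Il10 rose in B2B1 against B2, with a log2 difference of 3.33 ± 0.59 (SE, limma adjusted p = 0.00101). Against B1 the B2B1 cells were higher by 2.09 ± 0.59 (limma adjusted p = 0.0382). That call was lost in 11 of 19 alternatives, among them leaving out any B2 library (adjusted p = 0.0595 to 0.0607), any B1 library (0.0723 to 0.0864), B2B1 library 1 (difference 1.74, adjusted p = 0.113) or B2B1 library 3 (1.61, 0.105). In B1 against B2 Il10 was not called, at 1.23 with a 95% interval from −0.10 to 2.56 (limma adjusted p = 0.108). It was called there in 5 alternatives: without B2B1 library 2 (limma adjusted p = 0.00108), with a pseudocount of 0.1 (3.60, limma adjusted p = 0.00342) or 0.5 (1.85, limma adjusted p = 0.0384), with the 2 groups alone (limma adjusted p = 0.00293) and without the libraries low in Xist (limma adjusted p = 0.00968).

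Il12a encodes p35, the chain that forms IL-12 with p40 and IL-35 with Ebi3. The gene lies on chromosome 3 from 68690644 to 68698547. Its level was 46.3, 55.7 and 51.9 TPM in B2, 43.6, 42.3 and 75.7 TPM in B2B1, and 2.69, 0.452 and 3.24 TPM in B1. B2B1 and B2 values overlapped, and B1 values lay far below both. The mean was 24.1 times as high in B2 and 25.3 times as high in B2B1 as in B1. Against B2, Il12a fell by 4.20 on the log2 scale in B1, with an SE of 0.38 (limma adjusted p = 2.59e-05). In B2B1 it was higher than in B1 by 4.22 ± 0.38 (limma adjusted p = 0.000234). The difference of B2B1 from B2 was 0.02, with an interval from −0.84 to 0.88 (limma adjusted p = 0.965), so a change of less than about that size was not detectable. B2B1 library 3 was the highest and carried the lead over B2: without it the difference was −0.25.

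Ebi3 encodes the partner chain of IL-27 and IL-35, and it lies on chromosome 17 from 55952640 to 55957022. It stood at 18.0, 18.9 and 18.4 TPM in B2, at 88.8, 64.0 and 49.7 TPM in B2B1, and at 47.3, 54.9 and 43.2 TPM in B1. Each peritoneal library was above each B2 library, and the peritoneal groups overlapped. Ebi3 rose 2.63-fold in B1 (log2 difference 1.34 ± 0.18, limma adjusted p = 0.000285) and 3.66-fold in B2B1 (1.78 ± 0.18, limma adjusted p = 3.61e-05). Between B2B1 and B1 it differed by 0.44 ± 0.18, which did not pass (limma adjusted p = 0.125), and it was called without B2B1 library 3 (0.63, limma adjusted p = 0.0267).

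The chains of IL-35 therefore stood in different proportions in the 3 groups. A ratio of levels within a library does not depend on how libraries are scaled. Il12a was 2.57 to 2.95 times the level of Ebi3 in the B2 libraries. In B2B1 libraries 1, 2 and 3 the ratio was 0.492, 0.661 and 1.52. In B1 it was 0.00823 to 0.0750. The 3 groups did not overlap in this ratio. The other chains that pair with these were low: Il27 averaged 0.572 ± 0.325 TPM in B2, 0.607 ± 0.208 TPM in B2B1 and 0.546 ± 0.386 TPM in B1, and Il23a stayed under 0.1 TPM on average in each group. Il12b, which encodes p40, was looked for but not found among the gene symbols of the deposited table, so its level could not be read.

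Markers of other cells that can make these cytokines were measured in the same libraries. Of the 5 macrophage markers that were tested, 5 were higher in B2B1 and 1 (Emr1, which encodes F4/80) was higher in B1 than in B2. Their sum over the 10 measured was 267.4, 68.6 and 98.1 TPM in B2B1 libraries 1, 2 and 3, where Il10 stood at 15.9, 2.23 and 19.0 TPM and Ebi3 at 88.8, 64.0 and 49.7 TPM. All 10 averaged under 1 TPM in B2, so the tested ones passed the filter through the peritoneal groups and their count has no weight. In B2B1 the highest were Lyz2 (mean 82.6 TPM) and Emr1 (44.0 TPM), C1qa, C1qb and C1qc averaged 4.66 to 5.61 TPM, Csf1r 1.03 TPM and Timd4 1.02 TPM, and Cd14, Mertk and Fcgr1 averaged under 1 TPM. Dendritic cell markers summed to 85.6 to 97.8 TPM in B2, 129.2 to 214.1 TPM in B2B1 and 92.7 to 107.6 TPM in B1, and Siglech was at 0 in all libraries. That sum hides opposite directions. Against B2, Flt3 and Zbtb46 were called lower and Ccr9 higher in both peritoneal groups, Bst2 was higher in B2B1 only, and Xcr1 was not called. Plasma cell markers summed to 155.5 to 177.1, 245.8 to 300.5 and 209.7 to 257.2 TPM in the same order. Against B2, Prdm1 and Irf4 were called higher in both peritoneal groups. Sdc1 was called higher in B2B1 only, a call lost in 6 alternatives, and Xbp1 and Igj were called in neither. The part of these cells in the levels of Il10 and Ebi3 was not tested.

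Tgfb1 encodes TGF-beta 1 and lies on chromosome 7 from 25687002 to 25705077. It stood at 147.2, 143.7 and 127.1 TPM in B2, at 84.4, 101.8 and 78.3 TPM in B2B1, and at 59.4, 86.5 and 69.6 TPM in B1. All 6 peritoneal values lay below all B2 values, and the peritoneal groups overlapped. Tgfb1 was 1.94 times as high in B2 as in B1 (log2 difference −0.96 ± 0.14, limma adjusted p = 0.000507) and 1.58 times as high as in B2B1 (−0.66 ± 0.14, limma adjusted p = 0.00309). B2B1 and B1 differed by 0.30, with an interval from −0.02 to 0.62 (limma adjusted p = 0.172), and this passed without B1 library 2 (0.44, limma adjusted p = 0.0395).

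Ltb encodes lymphotoxin beta, the membrane anchor of the lymphotoxin heterotrimer. It was the most abundant of the 8 transcripts in every library of B2 and B2B1 and in B1 library 2, and stood below Il16 in B1 libraries 1 and 3. It lies on chromosome 17 from 35194439 to 35196320. The B2 libraries held 1026, 948.1 and 974.3 TPM, the B2B1 libraries 126.3, 271.2 and 173.3 TPM, and the B1 libraries 109.1, 154.6 and 71.7 TPM. B2 stood apart from both peritoneal groups, which overlapped. The level in B2 was 8.79 times that in B1 (log2 difference −3.19 ± 0.30, limma adjusted p = 3.58e-05) and 5.17 times that in B2B1 (−2.43 ± 0.30, limma adjusted p = 0.00013). The lead of B2B1 over B1, 0.76 ± 0.30, did not pass (limma adjusted p = 0.116), but was called without B1 library 2 (1.03, limma adjusted p = 0.0414) and with library weights (0.96, 0.0374).

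Lta encodes lymphotoxin alpha, which is secreted as a homotrimer or joined to lymphotoxin beta, and lies on chromosome 17 from 35203165 to 35205351. It stood at 73.8, 78.7 and 62.3 TPM in B2, at 0.701, 1.40 and 0.551 TPM in B2B1, and at 0.201, 2.07 and 0.396 TPM in B1. No peritoneal library came near the B2 libraries, and the peritoneal groups overlapped. The mean in B2 was 80.6 times that in B1 and 81.1 times that in B2B1. On the log2(TPM + 1) scale, which understates the change of low genes, Lta was lower by −5.39 ± 0.33 in B1 (limma adjusted p = 2.3e-06) and by −5.29 ± 0.33 in B2B1 (limma adjusted p = 2.04e-06). B2B1 differed from B1 by 0.10, with an interval from −0.64 to 0.84 (limma adjusted p = 0.86). Ltb and Lta did not fall in proportion: Ltb was 12.05 to 15.6 times the level of Lta in the B2 libraries and 74.8 to 542.2 times in the 6 peritoneal libraries.

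Tnf encodes the inflammatory cytokine TNF and lies between these genes, from 35199381 to 35202007. It stood at 19.8, 17.2 and 14.3 TPM in B2 and was listed at 0.958, 1.44 and 0 TPM in B2B1 and 0.635, 0.937 and 0 TPM in B1. Both peritoneal groups lay below B2 and overlapped each other. The log2 difference was −3.61 ± 0.35 in B1 (limma adjusted p = 3.83e-05) and −3.42 ± 0.35 in B2B1 (limma adjusted p = 3.75e-05). Between B2B1 and B1 it was 0.20, with an interval from −0.59 to 0.99 (limma adjusted p = 0.73). T cell markers belong to cells that also make lymphotoxin and TNF. Their sum was lowest in B2, at 13.1 to 16.4 TPM, with 20.2 to 26.2 TPM in B2B1 and 25.9 to 32.8 TPM in B1. That sum hides unlike members, and 5 of the 8 averaged under 1 TPM in B2. Of the 4 tested, Lck was called higher than in B2 in both peritoneal groups and Cd3g in B1 only. Cd3d and Cd8a were called in neither in the main fit. NK cell markers summed to 13.5 to 17.3 TPM in B2 and 1.53 to 2.70 TPM in the peritoneal libraries. Of these 8 markers, 7 averaged under 1 TPM in B2, and only Prf1 was tested, so the sum mainly follows that gene. The part of T and NK cells in the result was not tested.

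Around the Tnf cluster, 11 other tested genes start within 100 kb of the start of Tnf. In B1 against B2, 9 of them were lower (33.9% of all tested genes) and 0 were higher (18%), and their log2 differences ran from −1.06 to 0.01. In B2B1 against B2, 8 were lower (42% of all tested genes) and 1, H2-D1, was higher (21%), over a range from −0.89 to 0.49. Each of Ltb, Tnf and Lta had a larger difference than every one of these neighbours in both comparisons. The closest tested starts on either side were those of Lst1, a leukocyte-specific gene, at −0.92 ± 0.29 in B1 (limma adjusted p = 0.0271), and of Atp6v1g2, a proton pump subunit gene, at −1.06 ± 0.23 (limma adjusted p = 0.00419). No test was made of the cluster against its neighbours.

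**Figure D3:**
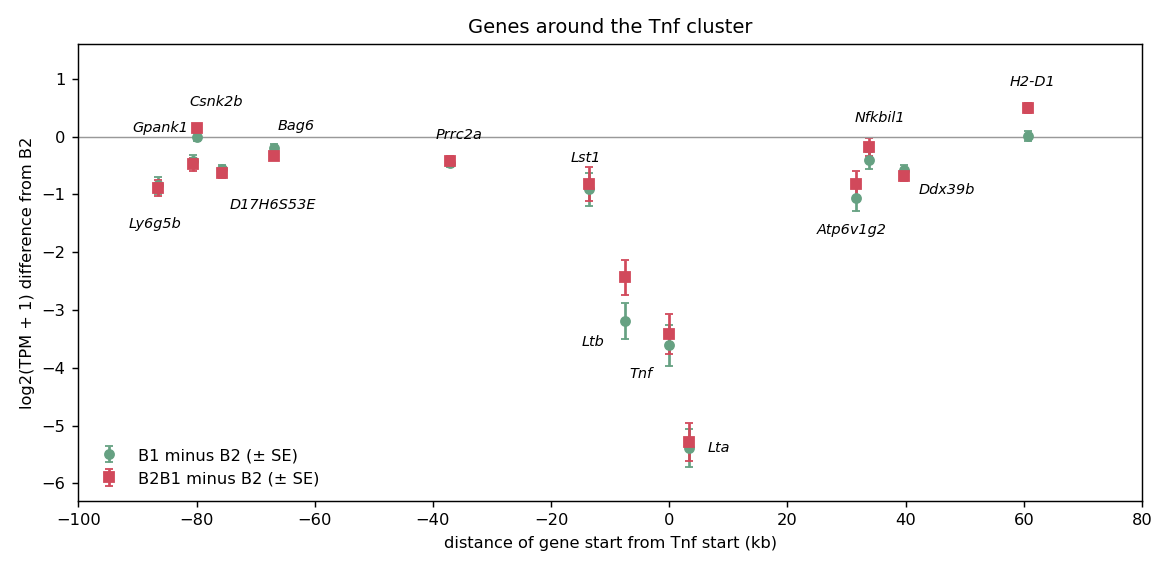
Fitted log2(TPM + 1) difference from B2 (vertical axis, ± SE) of the 14 tested genes that start within 100 kb of the start of Tnf, by distance in kb (horizontal axis), for B1 (circles) and B2B1 (squares). Ltb, Tnf and Lta lie between −2.43 and −5.39, and the 11 other genes lie between −1.06 and 0.49.

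Il16 encodes the precursor of IL-16 and lies on chromosome 7 from 83642825 to 83745726. It stood at 206.2, 191.7 and 192.8 TPM in B2, at 71.9, 66.7 and 68.4 TPM in B2B1, and at 126.0, 83.8 and 97.6 TPM in B1. The 3 groups did not overlap, with B1 in the middle. The level in B2 was 1.92 times that in B1 (log2 difference −0.96 ± 0.13, limma adjusted p = 0.000249) and 2.86 times that in B2B1 (−1.50 ± 0.13, limma adjusted p = 1.12e-05). B2B1 was lower than B1 by −0.55 ± 0.13 (limma adjusted p = 0.018), a call that was lost without B2B1 library 2 (−0.52, limma adjusted p = 0.0542), with the 2 groups fitted alone (limma adjusted p = 0.0623) and without the 3 libraries low in Xist (limma adjusted p = 0.245).

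The gene lists that follow are to be read against all tested genes, of which 18% were higher and 33.9% lower in B1 against B2, 21% and 42% in B2B1 against B2, and 6.93% and 12.1% in B2B1 against B1. Nothing particular to a list is drawn from its count. Receptors for these cytokines were read first, from a list of 12 of which 9 were tested. In B1 against B2, 3 were higher and 4 lower (median log2 difference −0.16). Among the higher, Tnfrsf1a passed the filter through the peritoneal groups, and among the lower, Tgfbr1 passed it through B2. Their part in the counts and medians of this list has no weight. In B2B1 against B2, 5 were higher and 4 lower (median 0.29), and in B2B1 against B1, 2 were higher and 2 lower (median 0.10). Il6st, the signalling chain gp130 that IL-27 and IL-35 use, rose from a B2 mean of 8.52 ± 1.55 TPM to 79.4 ± 3.36 TPM in B2B1 and 177 ± 21.4 TPM in B1 (limma adjusted p = 2.25e-07 and 3.81e-08). Il10ra, the ligand-binding chain of the IL-10 receptor, stood at 218 ± 5.82 TPM in B2, 57.3 ± 1.69 TPM in B2B1 and 128 ± 25.1 TPM in B1 and was lower in B2B1 than in B1 (−1.13 ± 0.11, limma adjusted p = 0.000431). Its partner Il10rb was at 97.2 ± 5.46, 119 ± 8.37 and 87.5 ± 12.8 TPM in the same order and was called higher in B2B1, a call against B2 that was lost without B2 library 1 or 3 or B2B1 library 1 or 2 (limma adjusted p = 0.0752 to 0.102), and against B1 without B2B1 library 1 or 2 or B1 library 1 (limma adjusted p = 0.0516 to 0.0581). It was called lower in B1 than in B2 without B1 library 3 (−0.27, limma adjusted p = 0.0279). Il27ra, at 85.7 ± 3.45, 66.4 ± 3.81 and 50.3 ± 3.62 TPM, was lower in both peritoneal groups than in B2. The call of B2B1 against B2 was lost with median-of-ratios scaling (−0.16).

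The signalling receptor chains of TGF-beta, Tgfbr1 and Tgfbr2, were lower in both peritoneal groups, though Tgfbr1 reached the filter only through B2. Tgfbr1 averaged 4.52 ± 0.619 TPM in B2, 0.726 ± 0.200 TPM in B2B1 and 0.607 ± 0.175 TPM in B1, and Tgfbr2 186 ± 7.48, 139 ± 13.8 and 137 ± 1.82 TPM. The co-receptor gene Tgfbr3 was under the filter, at means of 0.215, 0.0230 and 0.386 TPM. Of the TNF receptors, Tnfrsf1a had a listed value of 0 throughout B2, with means of 1.37 ± 0.279 TPM in B2B1 and 2.11 ± 0.247 TPM in B1, while Tnfrsf1b rose from 18.2 ± 1.42 TPM there to 44.4 ± 8.89 TPM in B2B1 and 39.8 ± 7.55 TPM in B1. The lymphotoxin receptor gene Ltbr, which is known from stromal and myeloid cells, averaged under 0.2 TPM in each group. Il12rb1 averaged 2.42 ± 0.350 TPM in B2, 6.83 ± 2.26 TPM in B2B1 and 4.13 ± 1.25 TPM in B1. It passed in B2B1 against B2 (limma adjusted p = 0.00189). Without the libraries low in Xist, which leaves 1 B2B1 library, that difference was 0.96, a call that did not hold. In B1 against B2 it passed with median-of-ratios scaling (limma adjusted p = 0.0393), without B2B1 library 2 (limma adjusted p = 0.0343) or without B1 library 3 (limma adjusted p = 0.0361). Il12rb2 was listed at 0 in every library.

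Genes of processing and release gave 7 tested of 16 listed, with 3 higher and 2 lower in B1 against B2 and 3 higher and 1 lower in B2B1 against B2 (medians −0.21 and 0.32). In B2B1 against B1 they gave 1 higher and 1 lower (median 0.08). Rhbdf2, which encodes the iRhom that carries the TNF-cleaving protease ADAM17 to the cell surface, fell from a B2 mean of 75.1 ± 4.15 TPM to 13.4 ± 1.56 TPM in B2B1 (−2.41 ± 0.10, limma adjusted p = 2.02e-07) and 26.6 ± 2.30 TPM in B1 (−1.47 ± 0.10, limma adjusted p = 4.27e-06). Adam17 itself stood at 43.8 ± 2.59, 39.4 ± 3.87 and 37.9 ± 5.27 TPM and did not pass in any comparison. Furin, the protease that cuts the TGF-beta precursor, was at 20.9 ± 2.05 TPM in B2, 28 ± 2.28 TPM in B2B1 and 27.8 ± 0.899 TPM in B1 and was higher in both (limma adjusted p = 0.00329 and 0.00475), the former being 0.114 without the libraries low in Xist.

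Among 24 signal transducers of these cytokines, 15 were lower (33.9% of all tested genes) and 3 higher (18%) in B1 against B2 (median −0.67), and 14 were lower (42%) and 4 higher (21%) in B2B1 against B2 (median −0.51), counts that became 8 and 1 without the 3 libraries low in Xist. Smad7, an inhibitor that TGF-beta itself induces, fell from a B2 mean of 34.2 ± 0.915 TPM to 1.22 ± 0.392 TPM in B2B1 and 1.19 ± 0.609 TPM in B1 (limma adjusted p = 6.69e-07 and 7.19e-07). Skil, another inhibitor of SMAD signalling, was at 39.7 ± 4.38, 11.9 ± 0.368 and 15.8 ± 0.788 TPM. In B2B1 against B1 the list gave 5 higher and 4 lower (median −0.02). The lower call of Ski was lost in 18 alternatives and that of Skil in 6, and the higher call of Tgif1 was lost in 6. Tnfaip3, which encodes the NF-kB inhibitor A20, was higher in B2B1, at 47.4 ± 1.35 against 21.7 ± 2.38 TPM (1.10 ± 0.08, limma adjusted p = 0.000116).

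All 20 transcription factors listed for cytokine genes in B cells were tested. In B1 against B2, 8 were higher and 7 lower (median 0.10), beside 18% and 33.9% of all tested genes. In B2B1 against B2, 9 were higher and 7 lower (median 0.24), beside 21% and 42%. The count of 7 lower was 4 with median-of-ratios scaling. Bhlhe41, a repressor needed by B-1 cells, rose from a B2 mean of 1.47 ± 0.645 TPM to 74.6 ± 23.7 TPM in B2B1 and 67.5 ± 7.17 TPM in B1. Ahr, the aryl hydrocarbon receptor, which is known to act in IL-10-producing B cells, was at 1.22 ± 0.257, 14 ± 2.54 and 11.5 ± 2.63 TPM, and Nfil3, a bZIP factor, at 1.77 ± 0.320, 51.8 ± 21.3 and 23.4 ± 4.09 TPM. The subunit gene Nfkb2 of the non-canonical NF-kB pathway fell from a B2 mean of 261 ± 14.7 TPM to 133 ± 5.10 TPM in B2B1 and 51.8 ± 1.93 TPM in B1. Its difference between B2B1 and B1 was 1.35 ± 0.06 (limma adjusted p = 7.52e-06), where 6 factors were higher and 2 lower (median 0.16), the latter count being 0 with median-of-ratios scaling.

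Of 10 factors that govern the decay of cytokine mRNA, 5 were lower in B1 and 8 in B2B1 against B2, and 0 were higher (medians −0.30 and −0.47), where 33.9% and 42% of all tested genes were lower. With median-of-ratios scaling the count of 8 became 5, and without the 3 libraries low in Xist it became 2. Zc3h12a, the endonuclease Regnase-1, fell from 64.1 ± 1.40 TPM to 29.8 ± 1.48 TPM in B2B1 and 28.3 ± 0.887 TPM in B1 (limma adjusted p = 1.13e-06 and 9.22e-07). Zfp36, which encodes tristetraprolin, a factor that destabilises Tnf mRNA, was at 283 ± 8.61 TPM in B2, 96.4 ± 47.6 TPM in B2B1 and 103 ± 3.87 TPM in B1. In B2B1 against B1, 1 member (Zfp36l2, at 43.8 ± 14.7 against 210.3 ± 134.6 TPM) was lower and 0 were higher (median −0.16), and this call was lost in 8 alternatives, among them leaving out B2B1 library 1 or 3 or B1 library 1 or 3 (limma adjusted p = 0.0637 to 0.0867).

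Of 8 surface markers used for regulatory B cells, all tested, Cd5, Havcr1 and Lag3 averaged under 1 TPM in B2 and passed the filter through the peritoneal groups, so the counts against B2 have no weight. The list gave 6 higher and 1 lower in B1 against B2 (median 1.29), and 5 higher and 1 lower in B2B1 against B2 (median 1.76). Between B2B1 and B1, 4 were higher and 3 lower (median 0.73). Cd9 was at 363 ± 48.5 TPM in B2B1 against 145 ± 8.57 TPM in B1, and the inhibitory receptor gene Lag3 at 45.5 ± 25.5 against 1.62 ± 0.666 TPM. Cd5 ran the other way, at 1.46 ± 0.338 against 18.8 ± 4.88 TPM. Cd1d1, the marker that was lower in both peritoneal groups, averaged 100.2 ± 4.05 TPM in B2, 33.8 ± 6.74 TPM in B2B1 and 24.1 ± 4.01 TPM in B1.

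Most other cytokines were scarcely present. Of 42 further cytokines and TNF family ligands, 34 averaged under 1 TPM, and 10 of them were at 0 in every library. The 8 that were tested include genes that reached the filter only through B2B1, such as Tnfsf4 and Tnfsf8, so their counts are given without weight: 2 higher and 0 lower in B1 against B2, 6 and 1 in B2B1 against B2, and 4 and 0 in B2B1 against B1. Il18, which encodes an inflammasome-dependent cytokine, averaged 5.70 ± 2.22 TPM in B2, 123 ± 51.3 TPM in B2B1 and 88.0 ± 12.4 TPM in B1. Tnfsf9, the ligand 4-1BBL, averaged 3.29 ± 1.48, 12.7 ± 2.82 and 3.43 ± 0.794 TPM. Il15, which supports NK and memory T cells, averaged 0.892 ± 0.303, 16.2 ± 6.61 and 3.13 ± 1.01 TPM. It was higher in B2B1 than in B1 (limma adjusted p = 0.00283).

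**Figure D4:**
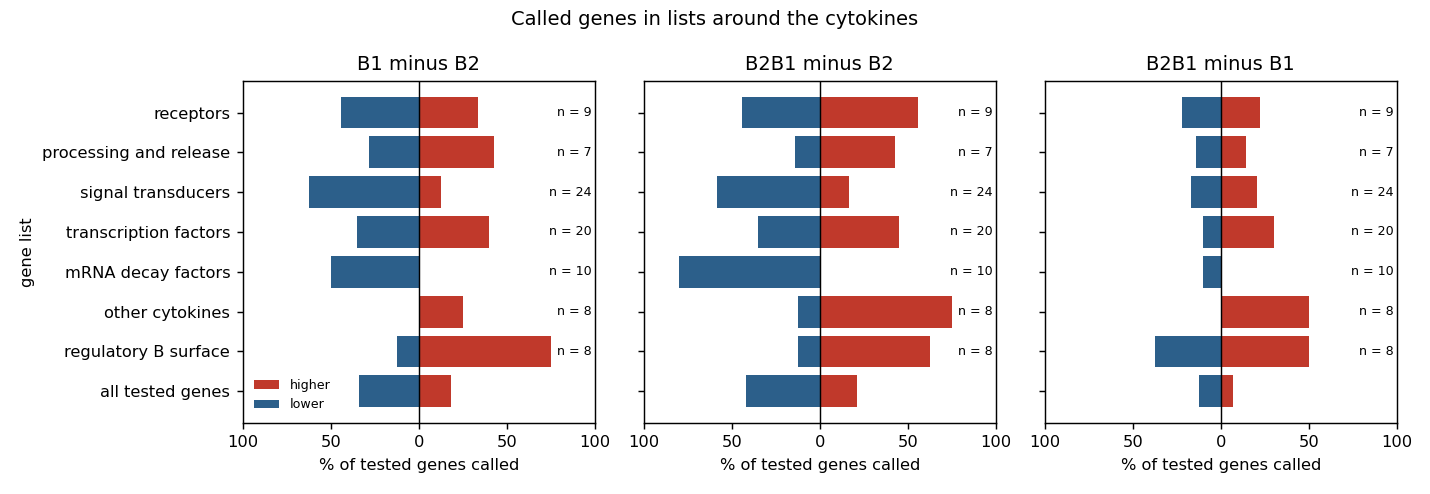
Percentage of tested genes called higher (right of 0) or lower (left of 0) by limma at an adjusted p under 0.05 (horizontal axis) in 7 gene lists and among all tested genes (vertical axis), in the 3 comparisons; n is the number tested. The mRNA decay factors have no higher member in any comparison, and all tested genes are called 18% higher and 33.9% lower in B1 against B2.

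The nearest tested genes beside the other members were also read. B9d2, a cilium gene that lies 444 bases from Tgfb1, was lower in B2B1 (log2 difference −0.67, limma adjusted p = 0.00157), as Tgfb1 was, and stood at −0.33 in B1 (limma adjusted p = 0.0569). Zfp119b, 3140 bases from Ebi3, was lower in B2B1 than in B2 (−2.19, limma adjusted p = 0.000266), against the direction of Ebi3. Mapkapk2, the kinase gene 28726 bases from Il10, was lower in B1 (−0.50, limma adjusted p = 0.000366) and in B2B1 (−0.51, limma adjusted p = 0.000212), while Pigr on the other side, 167596 bases away, was higher in both (1.27 and 1.76). For Il12a the nearest tested genes lay 1086407 bases (Mfsd1) and 193952 bases (Ift80) away, and for Il16 they lay 17211 bases (Tmc3) and 839433 bases (Fah) away.

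The genes whose levels ran most closely with each cytokine were found by Pearson's r of log2(TPM + 1) over the 9 libraries, among 8597 genes with a mean of at least 5 TPM. These values describe the shared order of 3 groups, not of independent samples. Closest to Il12a were Dtx1 (r = 0.976), a Notch pathway gene, Il9r (0.972) and Ccng2 (0.969). Dtx1 averaged 174.9 TPM in B2, 162.1 TPM in B2B1 and 79.5 TPM in B1. Closest to Lta were Fam78a (0.999), Treml2 (0.997) and Myl4 (0.997), and closest to Tnf were Snx11, Slc2a6 and Pdk1 (0.990 to 0.992). For Ltb they were Fh1, Rest and Zfp213 (0.986 to 0.989), for Tgfb1 Nlk (0.9747) and Naglu (0.9740), for Il16 Nedd9, Zbtb43 and Ppil4 (0.993 to 0.995), and for Ebi3 Rilpl1, Npm1 and Npc2 (0.987 to 0.992). Nedd9, an adaptor of integrin signalling, shared with Il16 the order of B2 (156.3 TPM), B1 (96.7 TPM) and B2B1 (69.9 TPM).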

How the data were processed

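The submitters' processing notes name CASAVA 1.8.2, kallisto and the build mm10; no version of kallisto is given in the sources used here. TPM per gene symbol are deposited, as made by the authors. Libraries were grouped by their titles, and 0 of 36 pairs were identical.

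Differences were tested on log2(TPM + 1), with a pseudocount of 1 and a minimum mean of 1 TPM, by limma 3.58.1 in R 4.3.3 (lmFit, contrasts.fit and eBayes, trend on). One model without covariates held the 9 libraries. P-values are two-sided, Benjamini-Hochberg adjusted over the 11099 tested genes, and called under 0.05. An exact permutation test of 3 against 3 cannot go below 0.1 and was not used. The fit was tested on simulated data.

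The members, gene lists and rules were chosen with earlier results of these data known. All members are named. From each list the text names up to 4 genes with the smallest adjusted p, partner chains, receptors and processing enzymes, and for each member the 3 genes most like it. A few genes that these rules name are not reported here. Single genes outside these rules were chosen after their values were seen, as was the 100 kb window. Positions are from GENCODE M21, and RefSeq promoter windows were found for 7 of 8 members. The alternatives changed the pseudocount, filter, scaling, model and libraries used.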

Additional observations from a re-analysis of the deposited data

How the results depend on the processing

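The results were recomputed under 20 alternatives, of which leaving out B2B1 library 1 with B1 library 2 was chosen after seeing the data. Of 24 results (8 genes in 3 comparisons), 15 kept their direction and their side of the threshold in every alternative that could be run; Il10 gave no value with the filter at a mean of 5 TPM. The number of genes called ran from 7 to 8 in B1 against B2 and from 6 to 7 in B2B1 against B2. In B2B1 against B1 it was 3, fell to 1 with the 2 groups fitted alone and reached 2 to 4 when single libraries were left out. Uncalled differences changed sign when single libraries were left out. Il12a in B2B1 against B2 then ran from −0.25 (without B2B1 library 3) to 0.17, and was −0.05 without B2 library 1. In B2B1 against B1, Lta ran from −0.16 to 0.51 (−0.16 without B1 library 1, −0.09 without B2B1 library 2, −0.05 without B1 library 3), and Tnf from −0.080 to 0.57 (−0.080 without B1 library 3, −0.070 without B2B1 library 2). Without the libraries low in Xist, Lta was at −0.15 and Tnf at −0.55. The cause was not tested. Without the 3 libraries low in Xist, B2B1 holds 1 library, assumed to vary like the others, and 408 genes were called against B1 in place of 2108, and 4223 against B2 in place of 6995. With the 2 groups fitted alone 1129 were called between B2B1 and B1, and without B1 library 1, 1341. Replicate numbers are shared between groups. The deviations of same-numbered libraries correlated at −0.06 to 0.12, and those of different-numbered libraries at −0.205 to 0.125. This shows no sign of pairing by number, but with so few libraries it cannot exclude it. With the replicate block 7, 7 and 3 of the 8 genes were called. Depth is unknown, so values near 0 TPM carry an uncertainty that cannot be stated.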
